A study of Homo sapiens with 2 samples.

Results

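The genes described here are the 240 protein-coding genes of chromosome 19 whose GENCODE name is ZNF followed by a number, out of 1480 protein-coding genes on that chromosome and 20163 in all. They were chosen by name and position, by a rule that uses no measured value. ATAC-seq gave the accessibility of their chromatin: the transposase Tn5 inserts sequencing adapters where DNA is exposed, and the inserted ends are counted. The 2 libraries came from G401, an established line from a malignant rhabdoid tumour of the kidney. Cells were kept for 3 days in the solvent DMSO or in MAK683, for which the series text gives a concentration of 3 µM. MAK683 is a small molecule that binds EED, a subunit of the Polycomb repressive complex PRC2, and so blocks methylation of lysine 27 of histone H3. The labels give no genetic change made to either culture, and each group is a single culture and a single library. The differences below could not be checked against replicates, and p-values were not computed. Intervals are at the 95% level unless stated otherwise. Those of single heights and single ratios cover tag-counting error only. Those of shares and medians treat genes as independent draws, although neighbouring ZNF genes are related copies. No interval covers variation between cultures.

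Most ZNF genes of chromosome 19 encode KRAB zinc finger proteins, in which a row of C2H2 zinc fingers reads DNA and the KRAB domain recruits the corepressor TRIM28. TRIM28 brings the histone methyltransferase SETDB1 and the HP1 proteins, and many of the sequences silenced in this way are retroelements. The genes arose by tandem duplication and lie in dense clusters on both arms of the chromosome. In many cell types the bodies and 3′ ends of these genes carry lysine 9 trimethylation of histone H3, while their promoters stay open. The 3′ end usually holds the exon for the whole zinc finger array.

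The promoters of these genes differ in CpG content, and the 3 windows below show one with a peak and a pair without. Each is the 150 bases just upstream of the transcription start site (TSS), read 5′ to 3′ on the strand of the gene from GRCh37, and the capitals mark CpG. Only windows that overlap no annotated exon were considered, which held for 86 of the 240 genes. ZNF446 (chr19:58987569-58987718, plus strand) had the tallest DMSO promoter peak among those 86, and its window holds 14 CpG. ZNF541 (chr19:48076406-48076555, minus strand), a gene known from spermatogenesis, had the highest CpG ratio of those of the 86 without a peak, with 30 CpG in its window. ZNF154 (chr19:58220573-58220722, minus strand), whose promoter is often methylated in tumours, had no peak in either library and has 7 CpG in its window.
ZNF446: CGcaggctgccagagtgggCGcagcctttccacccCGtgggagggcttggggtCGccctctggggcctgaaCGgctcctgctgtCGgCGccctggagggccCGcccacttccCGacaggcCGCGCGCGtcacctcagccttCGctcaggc
ZNF541: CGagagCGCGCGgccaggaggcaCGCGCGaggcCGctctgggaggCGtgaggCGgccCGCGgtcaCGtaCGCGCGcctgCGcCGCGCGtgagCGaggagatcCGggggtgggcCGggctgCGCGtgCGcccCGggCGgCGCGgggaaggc
ZNF154: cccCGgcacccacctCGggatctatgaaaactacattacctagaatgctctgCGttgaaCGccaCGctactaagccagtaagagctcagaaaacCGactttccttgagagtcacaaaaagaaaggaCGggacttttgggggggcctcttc

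The DMSO library held 16598348 tags after the authors' duplicate filter and the MAK683 library 18265284. Heights are given as RPM, the tags over the summit of the tallest peak within 3 kb of the TSS per 1000000 filtered tags, so that 1 tag was 0.0602 RPM in DMSO and 0.0547 RPM in MAK683. The lowest peak called in either library had 6 tags. The MAK683 library had more peaks than the DMSO library over the whole genome (161184 and 114060) but fewer on chromosome 19 (3911 and 4611). SMARCB1, the gene lost in rhabdoid tumours, had no promoter peak and 0 peaks anywhere in the gene in either library. VIM, a mesenchymal marker, had promoter peaks of 44 and 41 tags. The promoters of PTPRC, CD3E and ALB, which mark blood and liver, had no peak, whereas those of the epithelial genes EPCAM (12 and 11 tags) and CDH1 (18 and 17 tags) did. Elsewhere in the gene, PTPRC had 1 peak in DMSO and 6 in MAK683, CD3E had 0 and 1, and ALB had 0 in each. PECAM1 was not analysed here.

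At their promoters, 168 of the 240 genes had a peak in DMSO (70.0%, Wilson interval 63.9 to 75.4%) and 167 had one in MAK683 (69.6%, 63.5 to 75.1%). All protein-coding genes stood at 72.7% and 78.7%. The 1240 other protein-coding genes of chromosome 19 stood at 76.1% and 74.4%, and the 236 ZNF genes of other chromosomes at 86.0% in both libraries. The set of open promoters was nearly the same in the 2 libraries: 164 genes had a peak in both, 69 in neither, 4 in DMSO alone and 3 in MAK683 alone. A peak in MAK683 alone was thus called at 1.25% of these genes against 7.87% of all protein-coding genes, 2.66% of the other genes of chromosome 19 and 1.69% of the ZNF genes of other chromosomes. A peak in DMSO alone was called at 1.67% against 1.84% of all genes. Counting only peaks of at least 1 RPM left 141 of the 240 genes in DMSO and 96 in MAK683, and 60.1% and 53.0% of all protein-coding genes. The difference between these shares was not tested.

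The 7 promoters called in 1 library alone were all low. In DMSO alone, ZNF69 had 13 tags (0.783 RPM), ZNF283 had 12 (0.723 RPM), and ZNF358 and ZNF772 had 11 each (0.663 RPM). In MAK683 alone, ZNF626 and ZNF492 had 10 tags each (0.547 RPM) and ZNF559 had 8 (0.438 RPM). Both ZNF626 and ZNF492 lie in the large cluster next to the centromere. For comparison, the lowest promoter peak called in both libraries had 9 tags in DMSO, at ZNF350 and ZNF836.

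Among genes with a peak, DMSO heights ran from 0.542 to 3.43 RPM with a median of 1.63 RPM, and MAK683 heights from 0.438 to 2.14 RPM with a median of 1.15 RPM. Over all protein-coding genes with a peak the medians were 1.93 RPM in DMSO and 1.31 RPM in MAK683. They were 1.57 and 1.09 RPM over the other genes of chromosome 19, and 1.99 and 1.37 RPM over ZNF genes of other chromosomes. In DMSO 36 genes of the set reached 2 RPM, and in MAK683 4 did. The share of all protein-coding genes at that height was not counted. The tallest DMSO peak was that of ZNF8 (chr19:58789568-58791248), with 57 tags or 3.43 RPM (exact interval 2.60 to 4.45). In MAK683 the ZNF8 peak had 34 tags or 1.86 RPM (1.29 to 2.60). The next tallest was 1 peak between ZNF565 and ZNF146, which are transcribed away from each other and share it, with 50 tags (3.01 RPM) in DMSO and 38 (2.08 RPM) in MAK683. ZNF446, which carries a SCAN domain before its zinc fingers, had 49 tags (2.95 RPM) in DMSO and the tallest MAK683 peak of all, 39 tags (2.14 RPM). ZNF823 followed in MAK683 with 38 tags (2.08 RPM) and had 43 tags (2.59 RPM) in DMSO. The tall peaks of one library were therefore largely those of the other. Across the 164 genes with a peak in both libraries, heights had a Pearson r of 0.81 on the log2 scale and a Spearman rho of 0.79. These are correlations across genes of the same pair of libraries, and genes are not independent replicates. The tallest peaks of the 2 libraries overlapped at 161 of the 164 genes.

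**Figure D1:**
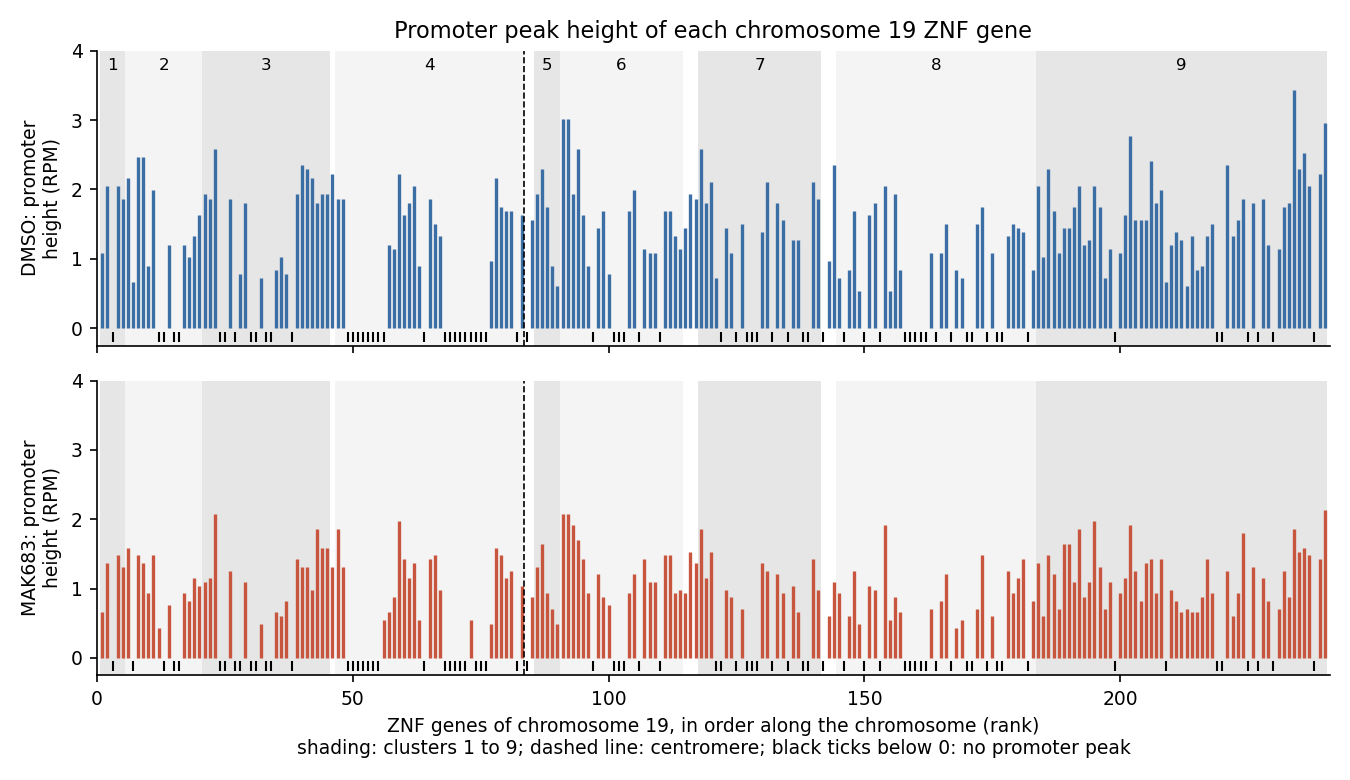
Promoter peak height in RPM (y axis) of each of the 240 ZNF genes in chromosomal order (x axis, rank), DMSO above and MAK683 below, with 9 clusters shaded and black ticks for genes without a promoter peak. Apart from 7 genes, the gaps sit at the same genes in both panels, most of all in clusters 4 and 8, and the MAK683 bars are shorter, with a highest value of 2.14 RPM against 3.43 RPM in DMSO.

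Promoter heights were lower in MAK683 at most of these genes, and the median ratio was close to that of all genes. Of the 164 genes with a peak in both libraries, 150 were lower in MAK683 and 14 were higher (8.54%, against 13.5% of all protein-coding genes). On the log2 scale the height in MAK683 over that in DMSO had a median of -0.48 (order-statistic interval -0.55 to -0.44), a ratio of 0.715, and single genes ran from -1.14 to 0.36. The median was -0.46 over all 14288 protein-coding genes with a peak in both libraries, -0.52 over the other genes of chromosome 19 and -0.52 over the ZNF genes of other chromosomes. A height at least 2-fold lower was found at 8 of the 164 genes (4.88%), against 5.89% of all such genes. A height at least 2-fold higher was found at 0 of the 164, against 1.11% of all such genes, 1 of 890 other genes of chromosome 19 and 0 of 199 ZNF genes of other chromosomes. The count of 8 was 3 without depth scaling, where the medians were -0.35 for these genes and -0.32 for all, and 1 among peaks of at least 1 RPM. At those settings 3.11% and 3.38% of all such genes were at least 2-fold lower. Single ratios were imprecise at these depths: the counting interval lay wholly below 0 at 22 genes (13.4%) and wholly above 0 at 0, against 20.6% and 0.931% of all such genes. Where the mean height of both libraries was under 1 RPM, the median log2 ratio was -0.40 (-0.69 to -0.31) over 39 ZNF genes. In that class it was -0.14 over all protein-coding genes and -0.46 over the other genes of chromosome 19. From 1 to 2 RPM the medians were -0.48 for the ZNF genes and -0.50 for all, and over 2 RPM -0.53 and -0.50. These differences were not tested.

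**Figure D2:**
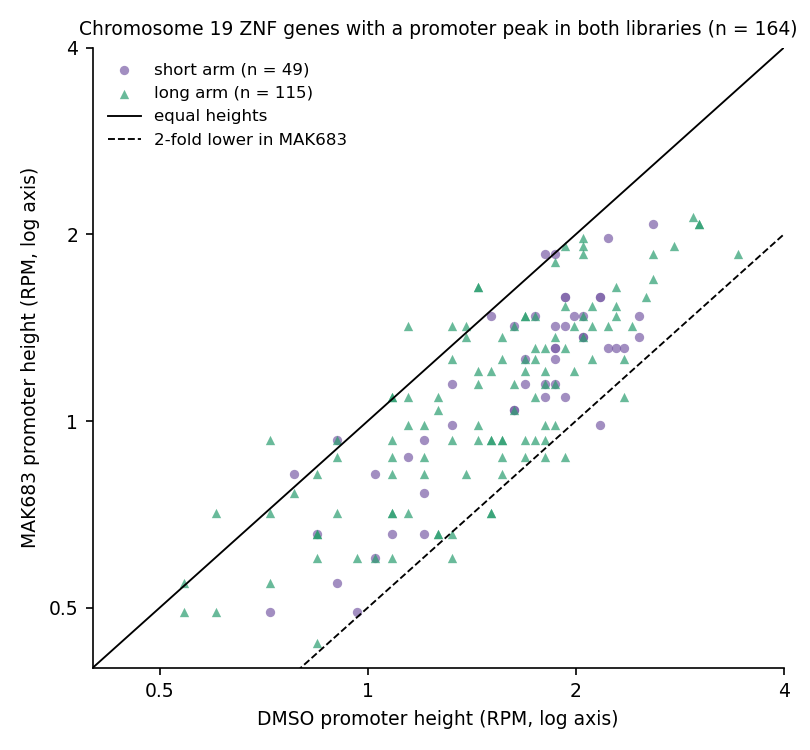
Promoter height in MAK683 against DMSO, both in RPM on log axes, for the 164 chromosome 19 ZNF genes with a peak in both libraries, short arm as circles and long arm as triangles. Of these, 150 points lie below the line of equal heights and 8 on or below the dashed line of a 2-fold lower height in MAK683.

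The lowest ratios were named among genes with at least 20 tags in either library. That rule leaves out low DMSO peaks, so the DMSO heights of these genes are no result. ZNF766 had 32 tags (1.93 RPM) in DMSO and 16 (0.876 RPM) in MAK683, a log2 ratio of -1.14 (-2.0 to -0.27). ZNF709 had 36 tags (2.17 RPM) and 18 (0.985 RPM), also -1.14 (-1.95 to -0.32). ZNF586 had 22 tags (1.33 RPM) and 11 (0.602 RPM), again -1.14 (-2.18 to -0.09). ZNF473, which encodes a protein of histone pre-mRNA processing and shares its peak with VRK3, had 39 tags (2.35 RPM) and 20 (1.09 RPM), a log2 ratio of -1.10 (-1.88 to -0.32). ZNF230 and ZNF816 each had 25 tags (1.51 RPM) and 13 (0.712 RPM), a log2 ratio of -1.08 (-2.05 to -0.11). The other 2 genes at least 2-fold lower were ZNF544 (30 and 16 tags) and ZNF416 (22 and 12 tags), both on the long arm. Among genes with at least 20 tags in either library, ZNF527 had the highest ratio, with 19 tags (1.14 RPM) in DMSO and 26 (1.42 RPM) in MAK683, a log2 ratio of 0.31 (-0.54 to 1.17). The peak shared by ZNF580 and ZNF581 had 24 and 30 tags (1.45 and 1.64 RPM), a log2 ratio of 0.18 (-0.59 to 0.96). ZNF211 (22 and 26 tags) and ZNF564 (30 and 34 tags) stood at 0.10 and 0.04. The intervals of all these higher genes included 0. Below that depth, ZNF175 had the highest ratio of all, 0.36 (-0.70 to 1.43), from 12 and 17 tags.

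Genes with a known role ranged from no peak to a DMSO height of 1.75 RPM, beside the median of 1.63 RPM over the set. ZNF91 and ZNF93, which silence retroelements in primate cells, differed: ZNF91 had 29 tags (1.75 RPM) in DMSO and 27 (1.48 RPM) in MAK683, and ZNF93 had no peak in either library. ZNF274, which binds the 3′ ends of other ZNF genes and brings SETDB1 there, had 29 tags (1.75 RPM) and 23 (1.26 RPM). ZNF350, a partner of BRCA1, had 9 tags in each library. ZNF649 had 14 and 11 tags. ZNF536, a brain gene that restrains neuronal differentiation, had no promoter peak. Of 6 genes whose promoters are often methylated in cancers, ZNF154 and ZNF677 had no peak and the other 4 had one in both libraries. For comparison, 28.75% of the 240 genes and 19.4% of all protein-coding genes had no peak in either library. With 6 genes, 2 without a peak do not set this list apart. ZNF471 had 29 and 24 tags, ZNF582 had 20 and 16, ZNF382 had 15 and 17, and ZNF331, an imprinted gene, had 14 and 15. DNA methylation was not analysed here.

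The corepressor machinery that KRAB zinc finger proteins work through was open in both libraries. All 12 partner genes examined had a promoter peak in both, all 12 were lower in MAK683, and their median log2 ratio was -0.48, beside -0.46 over all protein-coding genes. Of all 20163 protein-coding genes, 14288 had a peak in both libraries, and 12361 of these were lower in MAK683. A lower height was thus the common case and not particular to the list. TRIM28, itself on chromosome 19, had 42 tags (2.53 RPM) in DMSO and 35 (1.92 RPM) in MAK683. SETDB1 had 30 tags (1.81 RPM) and 19 (1.04 RPM). TASOR, the scaffold of the HUSH silencing complex, had the lowest ratio of the list, -1.22 (-2.05 to -0.39), from 36 and 17 tags. MORC2, a HUSH effector, had 24 and 13 tags.

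Where these promoters had a peak, it was usually single and close to the TSS. The summit of the tallest DMSO peak lay within 500 bp of the TSS at 157 of 168 genes (93.5%), against 59.1% of the open promoters of other chromosome 19 genes, 86.7% of those of ZNF genes elsewhere and 71.3% of those of all protein-coding genes. In MAK683 it did so at 150 genes (89.8%), against 56.4%, 86.7% and 67.4%. The median summit lay 40 bp upstream of the TSS in DMSO and 36 bp upstream in MAK683 (offsets of -40 and -36 bp). Median peak widths were 1031 bp and 901 bp, against 1343 bp and 970 bp at other genes of the chromosome. There were 1.23 peaks per open promoter window in DMSO and 1.25 in MAK683, against 2.12 and 1.94 at other genes of the chromosome. The tallest peak was shared with another annotated protein-coding gene at 34 ZNF genes, and at 10 of these the partner was another ZNF gene of the set. Some of the other partners were readthrough genes, which join neighbouring ZNF genes in 1 transcript, such as ZNF559-ZNF177 and ZNF625-ZNF20. They are not distinct loci, and the share over all protein-coding genes was not counted.

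Away from the promoter, peaks were few. In the gene body, the part of the gene more than 3 kb from both the TSS and the 3′ end, 4 genes had a peak in DMSO (1.67%, Wilson interval 0.650 to 4.21%) and 8 in MAK683 (3.33%, 1.70 to 6.44%). The shares over all protein-coding genes were 42.7% and 42.4%. Since genes differ in length, peaks were also counted per 100 kb of gene body. The 240 genes had 11 peaks in DMSO and 18 in MAK683 over 3985 kb, which is 0.276 and 0.452 per 100 kb. The rates were 7.50 and 5.11 per 100 kb at other genes of chromosome 19, and 3.89 and 4.43 at ZNF genes of other chromosomes. Other protein-coding genes inside the same clusters, with most zinc finger names left out, had 3.59 and 2.38 body peaks per 100 kb. Readthrough genes such as ZNF559-ZNF177 and ZNF625-ZNF20 were still in that group. The 21 zinc finger genes of chromosome 19 with other names had 0.530 and 0.265, so few body peaks were not particular to the 240 genes. The background used to call peaks was a single level for each library, and no test was made of these rates.

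Single genes accounted for much of what there was in the gene bodies. ZNF787 held 7 of the 11 DMSO body peaks, the tallest with 11 tags in each library. ZNF444 had an intronic peak of 13 tags in DMSO (chr19:56666502-56666848) and 10 in MAK683, and ZNF628 had 10 tags in each library. These 3 genes and ZNF837 (9 tags, DMSO alone) were all the genes with a DMSO body peak, and all lie in the cluster at the end of the long arm. ZNF536 held 7 of the 18 MAK683 body peaks and none in DMSO. Its tallest, in an intron (chr19:30943994-30945181), had 14 tags or 0.766 RPM (exact interval 0.419 to 1.29), the tallest body peak of the set in MAK683. Without ZNF536, 11 body peaks were left in MAK683, as many as in DMSO. No body peak of these genes reached 1 RPM or a −log10 q of 10 in either library.

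At the 3′ end, within 3 kb of the end of the transcript and outside the promoter window, 23 genes had a peak in DMSO (9.58%) and 21 in MAK683 (8.75%). The shares were 40% and 41.8% over all protein-coding genes and 53.4% and 49.1% over the other genes of chromosome 19. Most of these peaks sat at the start of a neighbouring gene: 14 of 23 in DMSO and 16 of 21 in MAK683 lay within 3 kb of the TSS of another gene. The tallest 3′ peak of the set, at ZNF324, was the promoter peak of ZNF446 described above, with 49 and 39 tags. The peak beyond ZNF653 (38 and 36 tags) lay at the TSS of ELAVL3, and the one beyond ZNF628 (30 and 25 tags) at those of NAT14 and SSC5D. The peak beyond ZNF175 (22 and 30 tags) lay at the TSS of LINC01530, and the one beyond ZNF414 had 29 and 30 tags. The last coding exon was taken as a stand-in for the zinc finger exon. Its median length was 1521.5 bp, but it was 5 bp at ZNF536, so it is not the finger exon of every gene. A peak over it and away from any TSS was found at ZNF296 in both libraries and at ZNF324 in MAK683 alone. In the longer 3′ window the tallest peak lay away from any TSS at 9 genes in DMSO and 5 in MAK683. The exon was not examined in other genes.

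**Figure D3:**
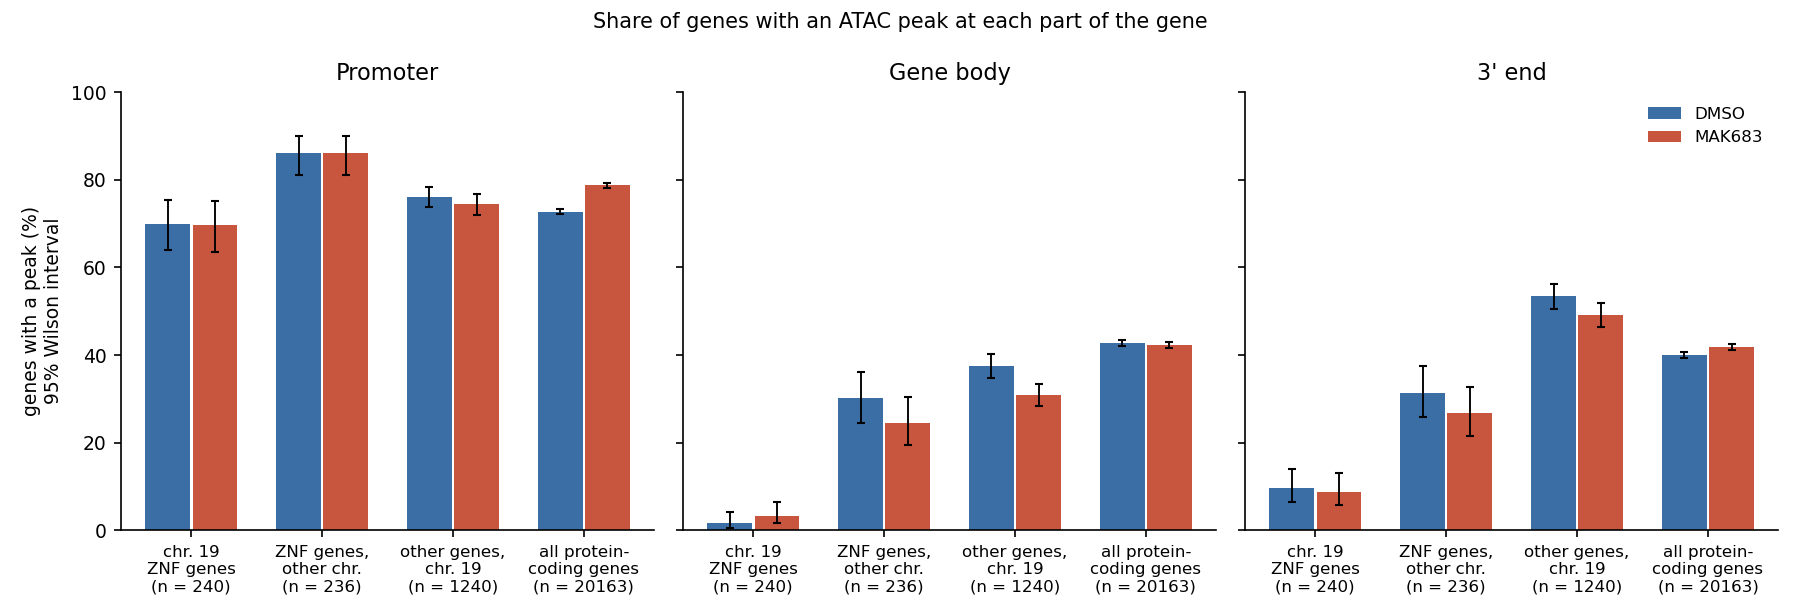
Percentage of genes with a peak (y axis) at the promoter, gene body and 3′ end for 4 sets of genes, with DMSO and MAK683 as separate bars and 95% Wilson intervals as error bars. The chromosome 19 ZNF genes stand at 70.0% for the promoter in DMSO, 1.67% for the gene body and 9.58% for the 3′ end, while all protein-coding genes stand at 72.7%, 42.7% and 40%.

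The short arm carries 83 of the genes and the long arm 157. On the short arm 61.4% had a promoter peak in DMSO (Wilson interval 50.7 to 71.2%) and 62.7% in MAK683. On the long arm the shares were 74.5% (67.2 to 80.7%) and 73.2%. Among the other genes of the chromosome the order was the opposite, with 80.3% and 78.0% on the short arm and 72.7% and 71.5% on the long arm. Heights did not follow this order: the median DMSO height was 1.81 RPM on the short arm and 1.57 RPM on the long arm. The median log2 ratio was -0.51 (-0.65 to -0.42) on the short arm and -0.48 (-0.57 to -0.41) on the long arm, so the intervals overlapped nearly whole. Body and 3′ peaks were mostly on the long arm. On the short arm 0 genes had a body peak in DMSO and 1 in MAK683 (ZNF653), over 1611 kb of gene body, and 3 had a 3′ peak in each library. On the long arm 4 and 7 genes had a body peak over 2374 kb, and 20 and 18 had a 3′ peak. In DMSO the 3′ shares were thus 3.61% on the short arm and 12.7% on the long arm. Among the other genes of the chromosome they were 59.0% and 48.8%. Body peaks in DMSO were found at 39.5% of those other genes on the short arm and 35.7% on the long arm. The differences between arms were not tested.

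Grouping neighbours whose TSSs were at most 1 Mb apart gave 9 clusters of 5 or more genes, which held 231 of the 240. Among clusters of more than 5 genes, promoter shares lay furthest apart between the cluster next to the centromere on the short arm and the one at the end of the long arm. The first, cluster 4, from ZNF101 to ZNF254, had 37 genes over 4.53 Mb, of which 18 (48.6%, 33.4 to 64.1%) had a promoter peak in DMSO and 20 (54.1%) in MAK683. The second, cluster 9, from ZNF628 to ZNF446, had 57 genes over 3.00 Mb, of which 50 (87.7%, 76.8 to 93.9%) had one in DMSO and 49 (86.0%) in MAK683. Cluster 4 had no gene body peak over 1009 kb and no 3′ peak in either library, while cluster 9 held all 4 genes with a DMSO body peak and 11 of the 23 with a DMSO 3′ peak.

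In cluster 4 the genes with and without a peak lay in alternating runs. A run of 7 neighbours without a peak in either library, the longest of all clusters, was ZNF506, ZNF253, ZNF93, ZNF682, ZNF90, ZNF486 and ZNF737. The other 10 genes of the cluster without a peak were ZNF493, ZNF208, ZNF257, ZNF676, ZNF729, ZNF98, ZNF99, ZNF723, ZNF728 and ZNF726. Its tallest DMSO peaks were those of ZNF430 and ZNF724. ZNF430 had 37 tags (2.23 RPM) in DMSO and 36 (1.97 RPM) in MAK683, and ZNF724 had 36 (2.17 RPM) and 29 (1.59 RPM). Its lowest DMSO peak was that of ZNF738, with 15 tags and 10 in MAK683, and its lowest MAK683 peak that of ZNF730, with 9 tags and 16 in DMSO. Over all clusters there were 222 pairs of neighbours, of which 116 both had a peak in at least 1 library, 28 both lacked one in each library and 78 were mixed.

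Cluster 8, from ZNF175 to ZNF331, followed cluster 4 in the share of promoters without a peak in either library, with 16 of 39 (41.0%). Cluster 7 (37.5%) and cluster 3 (32%) came next. In each library 59.0% of the genes of cluster 8 had a promoter peak. ZNF616 was its tallest in DMSO, with 34 tags (2.05 RPM) there and 35 (1.92 RPM) in MAK683. Its lowest in DMSO were ZNF350 and ZNF836, with 9 tags each (0.542 RPM). Cluster 3, from ZNF653 to ZNF791, had 68.0% and 64.0% of 25 genes with a peak, and cluster 7, from ZNF575 to ZNF296, 62.5% and 58.3% of 24. Clusters 2 (ZNF557 to ZNF846, 15 genes) and 6 (ZNF565 to ZNF573, 24 genes) stood at 73.3% and 75% in both libraries. The small clusters 1 (ZNF554 to ZNF77) and 5 (ZNF302 to ZNF792), with 5 genes each, had 4 and 5 genes with a peak. Median log2 ratios of the clusters ran from -0.58 (-0.92 to -0.31) in cluster 7 to -0.20 (-0.53 to -0.01) in cluster 6, and the intervals of all 9 clusters overlapped one another. In clusters 1 and 5, with 4 and 5 ratios, the interval is the whole range and covers less than 95%.

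**Figure D4:**
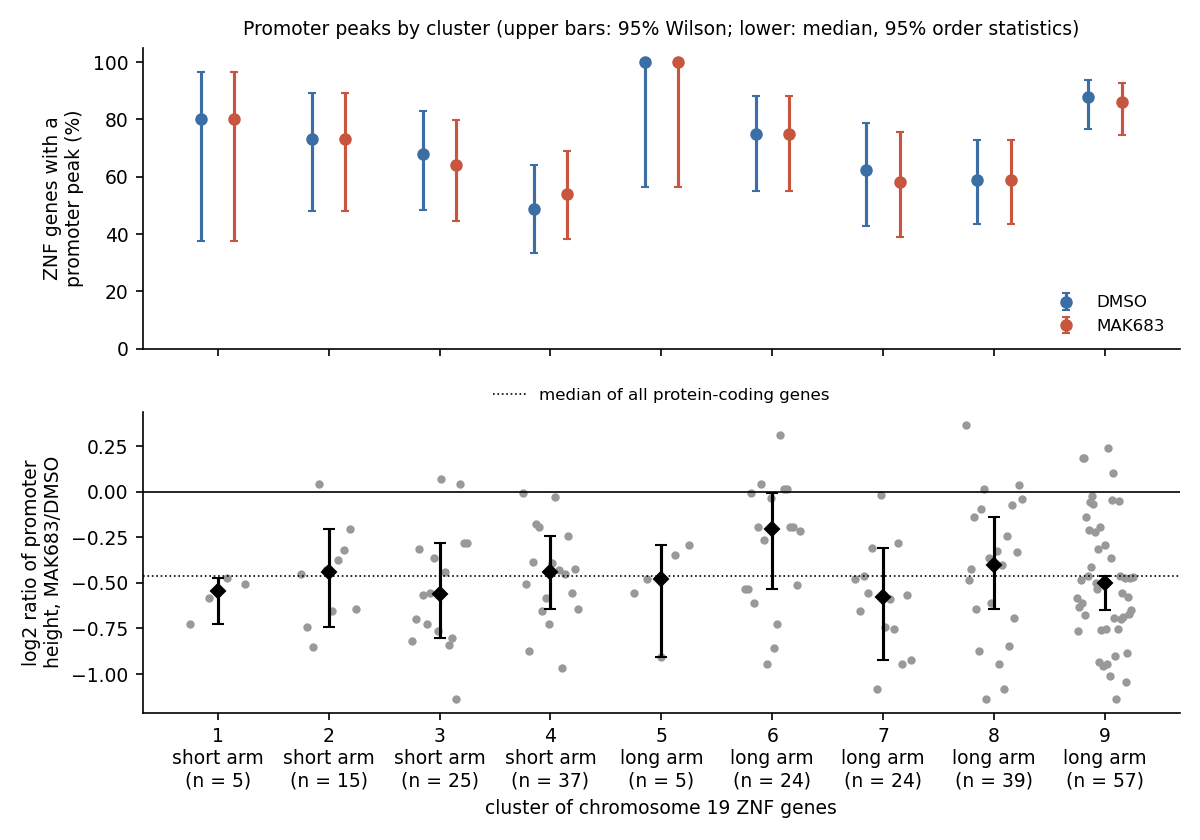
Upper panel, percentage of ZNF genes with a promoter peak in each of 9 clusters (x axis) with 95% Wilson intervals; lower panel, log2 ratio of promoter height for each gene (grey), the cluster median with its 95% order-statistic interval (black) and the median of all protein-coding genes (dotted). Cluster 4 is lowest in the upper panel at 48.6% in DMSO, cluster 9 is at 87.7%, and all 9 medians in the lower panel are below 0.

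The sequence around the cluster genes was also poor in peaks. Peaks more than 3 kb from the TSS of any annotated gene numbered 11.4 per Mb inside the clusters in DMSO and 7.45 per Mb in MAK683, against 54.0 and 43.0 per Mb over the rest of the chromosome. Cluster 4 had 0.662 and 0.221 per Mb, from 3 and 1 peaks. Clusters 2 and 7 were richer, with 29.9 and 31.8 per Mb in DMSO, and both span stretches between ZNF genes that hold other genes.

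Most of the 69 genes without a promoter peak had a CpG-rich promoter. The CpG ratio used here is the number of CpG observed over the number expected from the C and G content, in 1000 bases around the TSS. Its median was 0.73 over the 164 genes with a peak in both libraries and 0.66 over the 69 genes without a peak. Among other chromosome 19 genes the medians with and without a peak were 0.72 and 0.30, and among all protein-coding genes 0.78 and 0.27. Of the 69 ZNF genes, 45 (65.2%) had a ratio over 0.6, against 31 of the 263 other genes of the chromosome without a peak (11.8%). ZNF677 (0.91), ZNF229 (0.85) and ZNF880 (0.83) had the highest ratios without a peak, and ZNF541, printed above, followed at 0.82. Conversely ZNF114 (0.27), ZNF83 (0.29) and ZNF579 (0.32) had low ratios and peaks of 16, 18 and 17 tags in DMSO. The summit of the ZNF114 peak lay in an intron, 1842 bp from the TSS in DMSO and 1591 bp in MAK683. It was thus outside the 1000 bases used for the ratio.

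Within classes of CpG ratio, the share of ZNF genes with a peak was set beside that of other genes. In the class from 0.6 to 0.8, which holds 150 of them, 107 had a DMSO peak (71.3%, Wilson interval 63.6 to 78.0%) and 106 a MAK683 peak (70.7%). The other genes of chromosome 19 in that class stood at 93.1% (90.1 to 95.1%) and 90.8%, and all protein-coding genes at 87.4% and 90.9%. From 0.4 to 0.6 the shares were 48.8% of 41 ZNF genes and 67.5% of 169 others in DMSO, and 56.4% of all protein-coding genes. Over 0.8 they were 90.5% of 42 and 96.7% of 300, and 94.7% of all protein-coding genes. Under 0.4 only 7 ZNF genes were left, 3 of them with a peak. Neighbouring genes of a cluster are related copies and not independent, and the differences were not tested. Among open genes the CpG ratio followed height weakly, with a Spearman rho of 0.20 over the 168 genes with a DMSO peak, and of -0.10 with the log2 ratio over the 164.

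**Figure D5:**
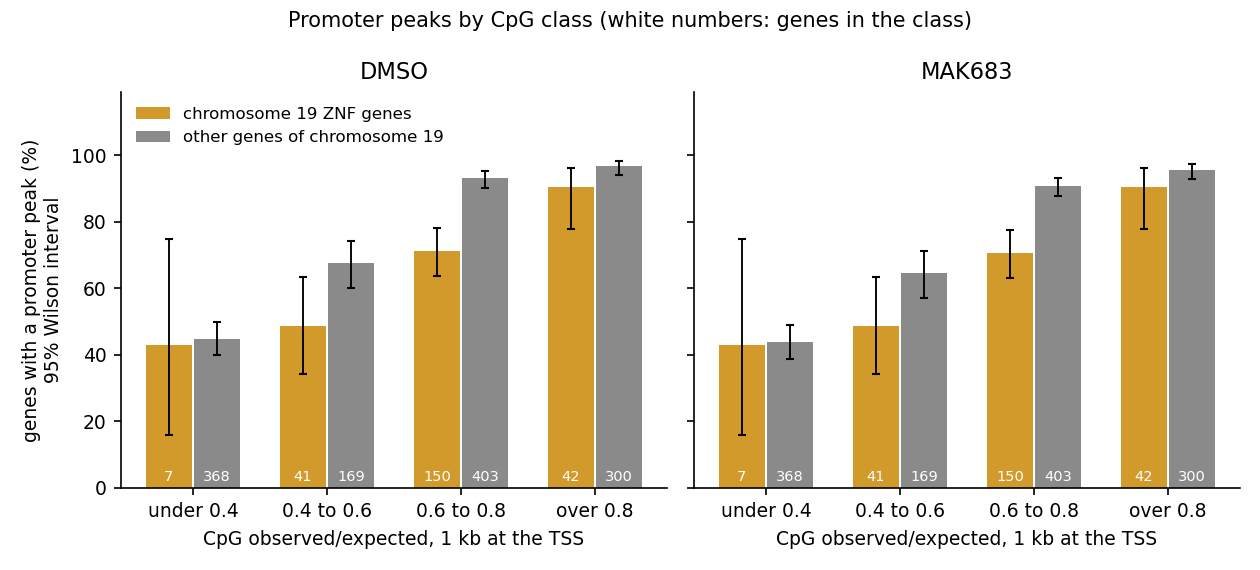
Percentage of genes with a promoter peak (y axis) by class of CpG ratio (x axis) for the chromosome 19 ZNF genes and the other protein-coding genes of the chromosome, DMSO left and MAK683 right, with 95% Wilson intervals and the number of genes in white. In the class from 0.6 to 0.8 the DMSO shares are 71.3% and 93.1%.

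Short motifs were searched as exact letters on both strands, from 250 bases before to 50 bases after the TSS. The ETS motif CCGGAAGT was in 17.9% of the 240 promoters, against 6.09% of all protein-coding promoters, and it was in 18.3% of the ZNF promoters with a peak in both libraries and 17.4% of those without one. The CCAAT box (letters CCAAT) was in 52.1% against 35.9%, with 51.2% of those with a peak and 53.6% of those without. The YY1 motif AAGATGGC was in 6.25% against 4.02% of all promoters. It was in 13 of the ZNF promoters with a peak in both libraries (7.93%) and 1 without (1.45%), and over all protein-coding genes in 5.18% and 1.23%. The GC box GGGCGG was in 68.8% against 60.9%. These matches describe letters in a window and say nothing of binding.

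Related copies can share reads. A second stretch of chromosome 19 matching 500 bp or more at 90% identity or more was found for the promoters of 12 genes, and the closest pair, ZNF28 and ZNF468, matched at 96.7%. Both had a peak, with 14 and 12 tags in DMSO, and their values are uncertain to the extent that reads were placed on either copy. Of the 12 genes 4 had no peak. Among the other 228, 65 had no peak and the median log2 ratio was -0.48.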

How the data were processed

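The study's methods name Trim-galore for trimming and Bowtie2 for alignment, to hg19 (GRCh37). Peaks were called by the authors separately in the 2 libraries, per the file headers with MACS 2.1.1.20160309 (the submitters' notes list MACS2 2.1.0 and 2.2.7.1), with tags shifted by -100 bp and extended to 200 bp, 1 tag per position, no control, a q-value cutoff of 0.05 and a single background level for each library. How reads matching several places were treated is not given in the sources used here. The deposited pileup signal is the whole number of tags at the summit and is unscaled. Fold enrichment, as deposited, is a ratio to the library's own background. The authors' −log10 p-values and q-values vary with sequencing depth too.

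Pileups were divided by the tags after filtering and multiplied by 1000000 (RPM). Genes were those of GENCODE 44 mapped to GRCh37, with 1 TSS per gene, that of the Ensembl canonical transcript where marked. A peak belonged to the promoter if it overlapped 3 kb either side of the TSS, next to the 3′ end if within 3 kb of it, and otherwise to the gene body. The arms were split at the longest run of unknown bases. Shares have Wilson intervals, heights exact Clopper-Pearson intervals, ratios Poisson intervals on the log scale and medians order-statistic intervals. PCR reads that carry no molecular identifiers do not count independent molecules. With 1 library per group no test was made. Calculations used Python 3.11.15, numpy 2.4.6, pandas 2.3.3 and scipy 1.17.1, similar promoters were sought with blastn 2.17.0, and the code was tested on simulated peaks.

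The gene set and lists were chosen with earlier results of these data known. Genes were named by rule: the 5 highest and 5 lowest ratios among genes with at least 20 tags in either library, the 3 tallest peaks of each kind and library, and genes with a known role. The genes that show the range within clusters, the extremes of CpG ratio, ZNF175 as the highest ratio, ZNF544, ZNF416, and ZNF837 were added after their values were seen. Alternatives were a −log10 q of at least 10, a height of at least 1 RPM, a 1 kb window, all basic TSSs, other height scales, and leaving out shared peaks.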

Additional observations from a re-analysis of the deposited data

How the results depend on the processing

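Of 88 values recomputed under alternatives, 63 stayed within the range set for each result and 25 left it. A change of direction was defined for the 30 median log2 ratios alone, and all 30 stayed below 0. For counts no direction was checked. The order of the libraries in genes with a 3′ peak, 23 in DMSO and 21 in MAK683, was the other way with a 1 kb window. A minimum of 1 RPM left 96 ZNF genes with a MAK683 promoter peak. Without depth scaling the median log2 ratio was -0.35 for all ZNF genes, -0.37 on the short arm and -0.34 on the long arm, against -0.32 over all protein-coding genes. With the deposited fold enrichment it was -0.41 for all ZNF genes and -0.41 on the long arm, against -0.39 over all protein-coding genes. The count of genes at least 2-fold lower was 4 at a −log10 q of at least 10, 1 at 1 RPM or more, 4 without shared peaks, 3 without depth scaling and 4 with the fold enrichment. Over all protein-coding genes the shares at those settings were 4.35%, 3.38%, 5.89%, 3.11% and 3.32%. Genes with a body peak numbered 0 in both libraries at the stricter q and at 1 RPM, and 8 in DMSO and 13 in MAK683 with a 1 kb window. Genes with a 3′ peak numbered 14 and 12 at the stricter q, 13 and 11 at 1 RPM, 11 and 13 with a 1 kb window, and 10 and 5 when only peaks away from every TSS counted, an alternative chosen after seeing the data. The stricter settings keep fewer peaks. The 1 kb setting narrows both the promoter and the 3′ window and lengthens the body. Where the added body peaks came from was not counted, and no cause was tested. No paired analysis was possible because each group has 1 library. The lowest peak had 6 tags, so a promoter without a peak may be open below that level.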

Other observations

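Gene families other than the ZNF genes are also clustered on chromosome 19, and their promoters ranged widely in these libraries. Of 20 olfactory receptor genes, 0 had a promoter peak in DMSO and 1 in MAK683. Of 15 kallikrein genes, which encode secreted serine proteases, 2 had a peak in each library. Of 11 SIGLEC genes, which encode sialic acid receptors of immune cells, 1 had a peak in each library, and not the same gene. Of 18 KIR and LILR genes, receptors of natural killer and myeloid cells, 3 had a peak in DMSO and 5 in MAK683. The PSG and CEACAM genes, which encode pregnancy-specific glycoproteins and related adhesion molecules, stood apart from these, with a peak at 14 of 22 in DMSO and 15 in MAK683. None of the tallest summits of the PSG and CEACAM genes lay within 500 bp of the TSS, whereas most of those of the ZNF genes did, and the median CpG ratio of these promoters was 0.14.

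Zinc finger genes of the chromosome recognised by other name patterns numbered 21, and readthrough genes such as ZNF559-ZNF177 were not among them. Of these, 13 had a promoter peak in both libraries and 8 in neither, and 1 had a gene body peak in DMSO. Their median log2 ratio was -0.57 (-1.04 to -0.14), and 3 of the 13 were at least 2-fold lower in MAK683. The DMSO summit was within 500 bp of the start site at 10 of the 13 (76.9%), against 93.5% of the open ZNF promoters. No test was made against the ZNF genes.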
